A study of Mus musculus with 15 samples.

Results

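The 10 genes described here encode the parts of the major histocompatibility complex (MHC) class I and class II molecules, and were chosen by name as the genes of these molecules, the invariant chain and the class I activator among the 16154 genes measured. All 10 were in the table and none was lost to a filter. They are B2m, H2-K1, H2-D1, H2-T23 and H2-M3 of class I, H2-Aa, H2-Ab1, H2-Eb1 and Cd74 of class II, and Nlrc5. Gene expression was measured in hematopoietic stem cells (HSC) isolated from bone marrow as lineage-negative cells carrying Sca-1, cKit and CD150 and lacking CD48, with 1 library per mouse. The 3 groups held 5 C57BL/6 mice each, all labelled female, although young replicates 1 and 5 carried Y-linked RNA. The groups were young mice of 6 to 12 weeks, aged mice of 20 to 24 months, and aged mice of the same age range that drank water with nicotinamide riboside (NR), a precursor of NAD, at 3 mg per ml over 2 months. The design asked how HSC differ with age and how HSC from NR-treated aged animals differ from both other groups. NR-treated young mice were not part of these libraries, so an effect of NR outside aged animals could not be examined.

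Class I molecules consist of a heavy chain paired with beta-2 microglobulin. They carry peptides made by the proteasome in the cytosol and pumped into the endoplasmic reticulum by the transporter TAP, and present them to CD8 T cells. Class II molecules are pairs of an alpha and a beta chain that assemble with the invariant chain, load peptides in endosomes and present them to CD4 T cells. Class I is found on nearly all nucleated cells, while class II is best known from B cells, dendritic cells and macrophages and has also been detected on mouse HSC. NLRC5 and CIITA are related activators of the class I and class II genes, and interferon-gamma induces both.

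Promoter sequences are shown for 5 members because these genes are controlled through short elements upstream of the start, and the windows let class I be set beside class II. Each window runs 5′ to 3′ from 250 bases before to 50 bases after the RefSeq gene start (build GRCm38.p6), and 7 of the 10 members had a window. Capitals mark matches, on either strand, to CCAAT (the core of a Y box), TGACG (the core of a cyclic AMP response element), GGGATTCCC (a site of NF-kappaB type) or AANNGAAA (the core of an interferon regulatory factor site). Of 32851 windows of the same length, 37.4% held CCAAT, 20.8% TGACG, 0.353% GGGATTCCC and 23.9% AANNGAAA. The windows lie at chr2:122147437-122147736 (plus strand) for B2m, chr17:34000298-34000597 (minus strand) for H2-K1, chr17:35262844-35263143 (plus strand) for H2-D1, chr17:34287774-34288073 (minus strand) for H2-Aa and chr17:34305617-34305916 (plus strand) for H2-Eb1. H2-K1 had 2 windows, of which 1 is printed.
B2m: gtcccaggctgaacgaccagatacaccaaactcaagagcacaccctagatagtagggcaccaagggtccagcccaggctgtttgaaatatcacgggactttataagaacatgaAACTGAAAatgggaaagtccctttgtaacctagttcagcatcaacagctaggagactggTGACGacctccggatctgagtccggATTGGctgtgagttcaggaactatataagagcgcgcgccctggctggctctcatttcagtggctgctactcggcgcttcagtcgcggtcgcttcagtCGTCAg
H2-K1: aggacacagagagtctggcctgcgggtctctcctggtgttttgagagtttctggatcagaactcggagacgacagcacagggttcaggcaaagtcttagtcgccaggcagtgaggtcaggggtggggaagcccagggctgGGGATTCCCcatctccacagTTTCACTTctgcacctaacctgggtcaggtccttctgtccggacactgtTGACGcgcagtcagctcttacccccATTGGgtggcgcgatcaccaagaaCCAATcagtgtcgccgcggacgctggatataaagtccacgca
H2-D1: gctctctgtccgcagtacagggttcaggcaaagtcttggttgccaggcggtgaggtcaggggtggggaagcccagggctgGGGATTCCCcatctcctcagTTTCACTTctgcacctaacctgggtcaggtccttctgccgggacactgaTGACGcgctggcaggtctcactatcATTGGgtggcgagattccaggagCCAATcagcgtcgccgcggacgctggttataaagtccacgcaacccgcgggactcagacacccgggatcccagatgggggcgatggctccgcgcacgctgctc
H2-Aa: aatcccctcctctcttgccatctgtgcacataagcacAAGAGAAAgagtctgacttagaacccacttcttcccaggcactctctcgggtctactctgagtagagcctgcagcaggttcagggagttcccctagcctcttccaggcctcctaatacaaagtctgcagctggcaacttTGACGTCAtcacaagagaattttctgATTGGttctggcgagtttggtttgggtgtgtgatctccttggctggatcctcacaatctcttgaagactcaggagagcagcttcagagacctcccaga
H2-Eb1: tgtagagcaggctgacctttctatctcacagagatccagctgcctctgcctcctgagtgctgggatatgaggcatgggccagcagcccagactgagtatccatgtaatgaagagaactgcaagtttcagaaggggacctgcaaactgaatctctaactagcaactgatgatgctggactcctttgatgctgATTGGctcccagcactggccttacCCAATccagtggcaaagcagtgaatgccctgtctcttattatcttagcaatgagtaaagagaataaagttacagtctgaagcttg

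The windows of H2-K1 and H2-D1, the classical heavy chains, held the same set of matches, with 2 of CCAAT and 1 each of TGACG, GGGATTCCC and AANNGAAA. In both, the next CCAAT match began 25 bases after TGACG, and the same spacing of 25 bases was found in B2m. In H2-M3, with TGACG at -46, the next CCAAT match began 10 bases on, at -36. A further CCAAT match of H2-M3, at -21, had the spacing of 25 bases. In H2-Aa a palindromic match was counted on both strands, at positions -74 and -71 relative to the start, and the CCAAT match began 26 and 23 bases further on. H2-Eb1 held 2 matches to CCAAT and none to the other letters. Of the members whose sequences are not printed, H2-M3 had 3 CCAAT matches, 1 of TGACG and 1 of AANNGAAA, and H2-T23 had 1 of CCAAT and 2 of AANNGAAA. These matches describe letters in the windows and were not tested as sites.

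Total counts per library ranged from 764119 to 13318989, and all 10 members were counted in all 15 libraries, the lowest value being 25 counts for H2-M3 in aged replicate 2, the library with the lowest total. Levels are given as counts per 1000000 (CPM) with trimmed-mean (TMM) library sizes, and fold changes as log2 values from edgeR, whose quasi-likelihood p was adjusted by Benjamini-Hochberg across the 16154 genes and called under 0.05. Counts came from 3′ ends and were not divided by length, and levels of different genes were not tested against each other. The most abundant marker of a list is named by its CPM alone. Several libraries stood apart. The summed level of 10 granulocyte markers was 5356 CPM in young replicate 3 and 26.1 to 636 CPM in the other young libraries. A set of 4 Y-linked genes summed to 99.7 and 105 CPM in young replicates 1 and 5, against 0.731 to 3.00 CPM in the other 13 libraries. All mice were labelled female, which the Y-linked RNA of young replicates 1 and 5 contradicts. No aged or NR library carried such levels, so age and sex are not fully separate in comparisons with young HSC. Counts of genes called against young HSC are therefore also given without young replicates 1, 3 and 5. This leaves 2 young libraries and was chosen after the data were seen. Shares of all genes belong to the fit with all 15 libraries, and none is given for the smaller fit. HSC markers were present in every library, and Meis1 was the most abundant of the 10 listed. They summed to 1838 to 2194 CPM in young, 2117 to 2593 CPM in aged and 1913 to 2475 CPM in NR-treated aged HSC. Kit, Mecom and Meis1 did not pass with age in edgeR, but 4 of the 10 rose, beside 9.68% of all genes. These were Ly6a, Slamf1, Procr and Hoxb5, with log2 fold changes of 1.21, 0.84, 1.27 and 0.69. Ly6a and Slamf1 encode the sorting markers Sca-1 and CD150. Without young replicates 1, 3 and 5, 3 of the 10 passed as higher. Between aged and NR-treated aged HSC 1 of the 10 fell, beside 4.18% of all genes.

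MHC genes of both classes were higher in aged than in young HSC. Of the 10 members, 9 rose, and only Nlrc5 did not pass the test, beside 9.68% of all 16154 genes that rose and 9.63% that fell. In 8 of the 10 members every aged library lay above every young library, against 6.86% of all genes. The class II genes rose by 2.61-fold to 4.45-fold and the class I genes by 1.35-fold to 1.77-fold, with a median log2 fold change of 1.99 for 4 class II genes and 0.64 for 5 class I genes, beside -0.032 for all genes. Without young replicates 1, 3 and 5, with 2 young libraries left, the call was kept by 6 members, namely all 4 class II genes, H2-D1 and H2-T23. It was lost by B2m (log2 fold change 0.60, adjusted p = 0.051, edgeR), H2-K1 (0.47, adjusted p = 0.104) and H2-M3 (0.49, adjusted p = 0.168). With all libraries these log2 fold changes were 0.64, 0.54 and 0.48. In bulk samples, a change in the number of expressing cells and a change in RNA per cell cannot be told apart.

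**Figure D1:**
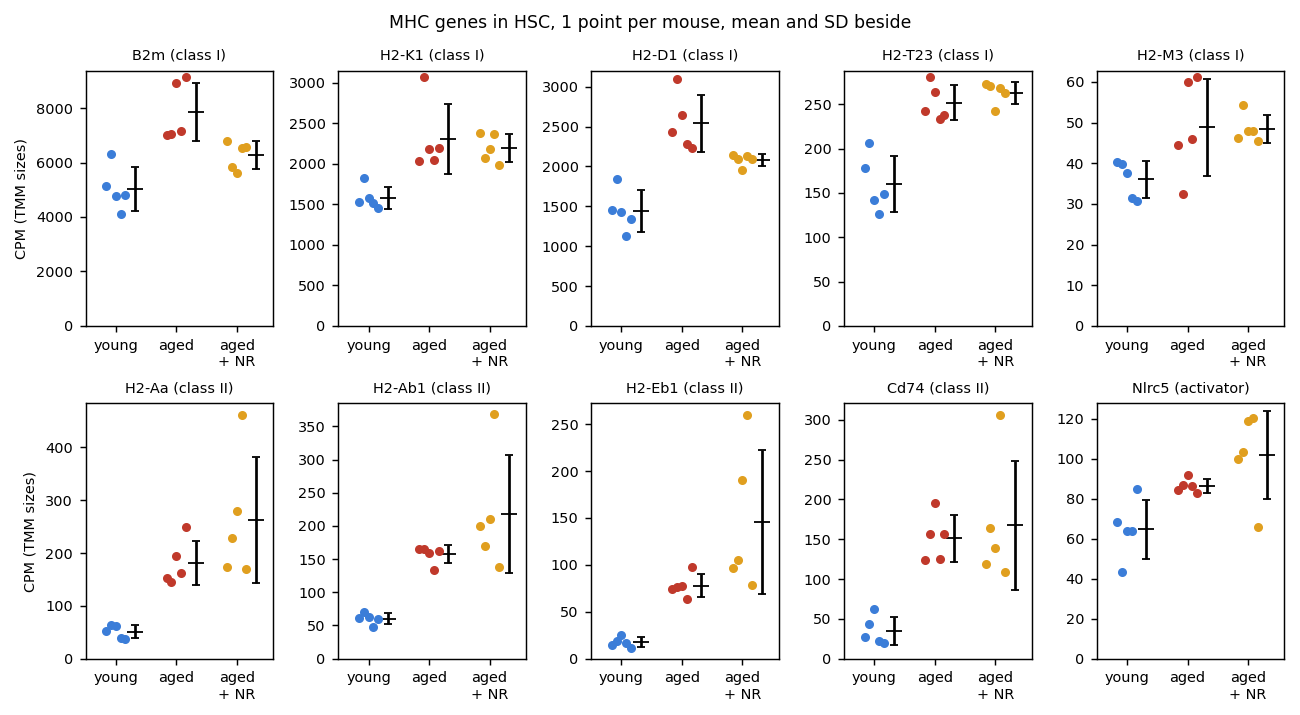
CPM of each of the 10 MHC genes (y axis, TMM library sizes) in young, aged and NR-treated aged HSC (x axis), with 1 point per mouse and the mean and SD of 5 mice beside the points. H2-Eb1 runs from 11.1 to 25.6 CPM in young, 63.8 to 98.0 CPM in aged and 78.7 to 260 CPM in NR-treated aged HSC, while H2-K1 lies between 1453 and 3067 CPM throughout.

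Among the class II chains, H2-Eb1, the beta chain of the I-E molecule (chromosome 17, 34305867 to 34316674, plus strand, GRCm38), showed the largest fold. Its levels were 15.1, 19.3, 25.6, 16.7 and 11.1 CPM in the 5 young libraries and 74.3, 76.5, 77.4, 63.8 and 98.0 CPM in the 5 aged libraries. The lowest aged library thus lay far above the highest young one. H2-Eb1 rose from 17.5 ± 5.40 to 78.0 ± 12.4 CPM (SD, n = 5 each), a log2 fold change of 2.18 ± 0.29 (SE, adjusted p = 3.71e-05, edgeR). C57BL/6 mice do not make the I-E alpha chain, so this transcript lacks its usual partner in these animals. The I-A molecule, by contrast, is complete in this strain, and both of its chains were measured.

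H2-Aa, the alpha chain of I-A (chromosome 17, 34282744 to 34287823, minus strand), stood at 53.3, 64.3, 61.1, 38.5 and 37.8 CPM in young and at 153, 145, 194, 163 and 249 CPM in aged HSC. This is a rise of 3.55-fold, with a log2 fold change of 1.84 ± 0.25 (SE, adjusted p = 3.66e-05, edgeR). H2-Ab1, the beta chain of I-A (chromosome 17, 34257689 to 34269419, plus strand), measured 61.4, 69.9, 62.9, 47.5 and 59.3 CPM in young libraries and 166, 165, 160, 134 and 163 CPM in aged libraries. No library of H2-Aa or H2-Ab1 overlapped between these groups. The log2 fold change of H2-Ab1 was 1.38 ± 0.19 (SE, adjusted p = 6e-05, edgeR), the smallest of the class II genes.

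Cd74 encodes the invariant chain, which blocks the peptide groove of new class II molecules and directs them to endosomes, and lies outside the MHC on chromosome 18 (60803848 to 60812652, plus strand). Young libraries held 27.7, 43.0, 62.0, 22.5 and 19.1 CPM of Cd74, and aged libraries 124, 157, 195, 125 and 156 CPM. The highest young value came from replicate 3, the library with high granulocyte markers, and was still below the lowest aged value. Cd74 rose 4.34-fold (log2 fold change 2.14 ± 0.30, SE, adjusted p = 6.02e-05, edgeR). When 1 library at a time was left out, the log2 fold changes stayed between 1.98 and 2.45 for Cd74, 2.04 and 2.35 for H2-Eb1, 1.70 and 1.94 for H2-Aa, and 1.31 and 1.44 for H2-Ab1, and all 4 calls held in all 15 fits.

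The class I genes rose by less. B2m, the light chain shared by all class I molecules (chromosome 2, 122147686 to 122153083, plus strand), had 5145, 6311, 4756, 4108 and 4806 CPM in young and 7004, 7058, 8934, 7150 and 9124 CPM in aged HSC. The 2 groups did not overlap, and the log2 fold change was 0.64 ± 0.12 (SE, adjusted p = 0.00116, edgeR). H2-D1, a classical heavy chain (chromosome 17, 35262730 to 35267499, plus strand), had 1457, 1848, 1428, 1126 and 1338 CPM in young and 2435, 3102, 2650, 2286 and 2229 CPM in aged HSC. It showed the largest class I change, a log2 fold change of 0.82 ± 0.12 (SE, adjusted p = 0.000115, edgeR). Young replicate 2 was the highest young library for both genes.

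H2-K1, the other classical heavy chain (chromosome 17, 33996017 to 34000347, minus strand), had 1528, 1818, 1573, 1522 and 1453 CPM in young and 2031, 3067, 2183, 2042 and 2194 CPM in aged HSC. Aged replicate 2, the shallow library, was the highest for H2-K1 as for H2-D1. H2-K1 rose 1.46-fold (log2 fold change 0.54 ± 0.12, SE, adjusted p = 0.00321, edgeR), and by 0.42 on the log2 scale without that library. H2-T23, the Qa-1 molecule that presents peptides of other class I leader sequences (chromosome 17, 36029773 to 36032855, minus strand), rose from 160 ± 31.6 to 252 ± 19.8 CPM (SD, n = 5 each). Its 5 young libraries (127 to 206 CPM) lay below its 5 aged libraries (233 to 280 CPM), and the adjusted p was 0.000798 in edgeR. H2-M3, which presents N-formylated peptides (chromosome 17, 37270220 to 37274484, plus strand), had overlapping groups of 30.7 to 40.4 CPM in young and 32.4 to 61.3 CPM in aged HSC. Its log2 fold change of 0.48 ± 0.15 (SE) passed narrowly (adjusted p = 0.0294, edgeR) and failed in 4 of the 15 fits that left out 1 library, with adjusted p from 0.00936 to 0.101.

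Nlrc5, the activator of class I genes (chromosome 8, 94434356 to 94527272, plus strand), did not pass the test with age. Its levels were 68.4, 43.4, 63.8, 63.9 and 84.7 CPM in young and 84.5, 86.9, 92.0, 86.2 and 82.9 CPM in aged HSC, so that young replicate 5 lay within the aged range. The log2 difference was 0.41 ± 0.16 (SE, adjusted p = 0.077, edgeR), and it passed in 2 of 15 fits that left out 1 library. The SD was 14.7 CPM among young and 3.41 CPM among aged mice.

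In HSC from NR-treated aged animals, most MHC genes stayed above the young level. Compared with untreated aged HSC, 1 of the 10 members passed the test, H2-Eb1, which was higher after NR, and none passed as lower in edgeR (2 at an unadjusted p under 0.05, 1 by DESeq2 and 0 by limma-voom). Over all genes, 3.88% rose and 4.18% fell in this comparison. The median log2 difference was 0.50 for the class II genes and -0.068 for the class I genes, beside 0.020 for all genes. Against young HSC, 8 of the 10 members were higher in NR-treated aged HSC, beside 2.56% of all genes, and in 8 members every NR library lay above every young library, against 2.80% of all genes. The aged libraries enter both age and NR comparisons, and the young libraries both comparisons with young, so these contrasts are not independent.

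**Figure D2:**
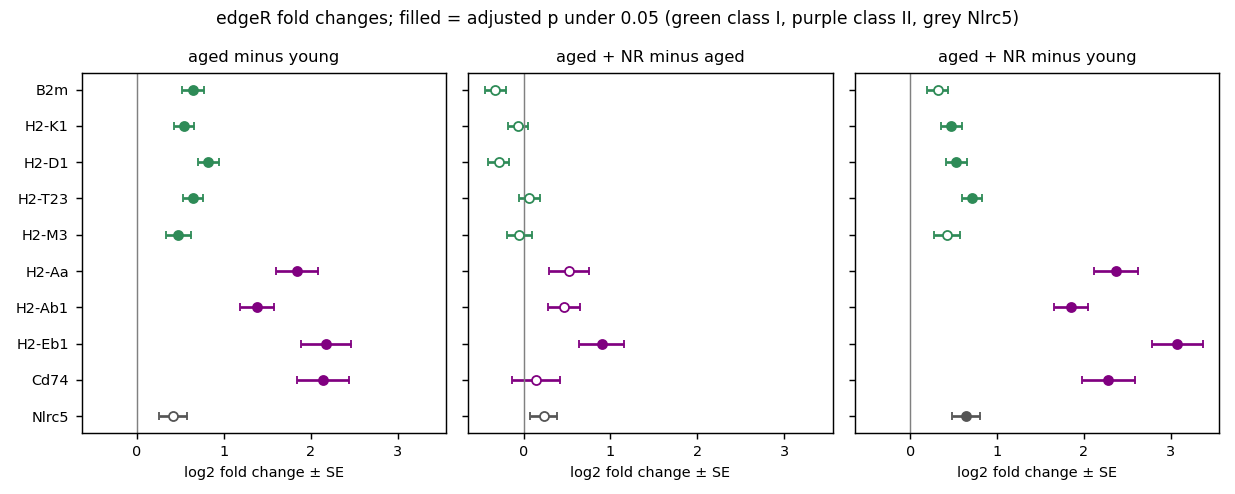
Log2 fold changes with their SE (x axis) of the 10 MHC genes (y axis) from edgeR for aged against young, NR-treated aged against aged and NR-treated aged against young HSC, where filled points have an adjusted p under 0.05. In the first comparison 9 points are filled, in the second H2-Eb1 alone at 0.90, and in the last 8.

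H2-Eb1 measured 96.9, 105, 190, 260 and 78.7 CPM in the 5 NR libraries, against 63.8 to 98.0 CPM in aged HSC. NR replicates 3 and 4 lay far above the aged range and NR replicates 1 and 5 within it. The log2 difference was 0.90 ± 0.26 (SE, adjusted p = 0.0387, edgeR). This call rested on few libraries: it was lost in 7 of the 15 fits that left out 1 library, namely when any aged library or NR replicate 3 or 4 was left out, with adjusted p from 0.0171 to 0.133. The level without NR replicate 4 was 0.59 higher on the log2 scale than in aged HSC. Against young HSC, the log2 fold change of H2-Eb1 was 3.08 ± 0.29 (SE, adjusted p = 9.49e-07, edgeR).

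The other class II genes did not pass the test against aged HSC. H2-Aa measured 174, 228, 279, 462 and 170 CPM after NR (log2 difference 0.53 ± 0.23, SE, adjusted p = 0.159, edgeR), and H2-Ab1 measured 200, 171, 211, 369 and 139 CPM (0.47 ± 0.19, SE, adjusted p = 0.12). Cd74 measured 118, 164, 139, 306 and 109 CPM (0.14 ± 0.28, SE, adjusted p = 0.791). NR replicate 4 was the highest of all 15 libraries for each of the 4 class II genes, and NR replicate 5 was the lowest NR library for each. The SD among NR mice, 120 CPM for H2-Aa and 80.4 CPM for Cd74, exceeded the SD of 42.3 and 29.4 CPM among untreated aged mice. Without NR replicate 4 the log2 difference of Cd74 from aged HSC was -0.19, of H2-Aa 0.22 and of H2-Ab1 0.20. Against young HSC all 3 genes rose, with log2 fold changes of 2.37 for H2-Aa, 1.85 for H2-Ab1 and 2.28 for Cd74, and adjusted p of 3.26e-06, 3.26e-06 and 6.13e-05.

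No class I gene passed the test between NR-treated aged and aged HSC. B2m measured 6781, 5849, 5611, 6520 and 6568 CPM, and H2-D1 measured 2138, 2090, 1955, 2127 and 2088 CPM. For these 2 genes every NR library lay below every aged library, as for 4.95% of all genes, but neither passed the test (log2 differences of -0.33 ± 0.12 with adjusted p = 0.0992 and -0.29 ± 0.12 with adjusted p = 0.142, SE, edgeR). Under DESeq2 the lower B2m level passed. H2-K1 (2376, 2068, 2176, 2367 and 1986 CPM), H2-T23 (242 to 273 CPM) and H2-M3 (45.5 to 54.3 CPM) overlapped the aged libraries, with log2 differences of -0.068 ± 0.12, 0.068 ± 0.12 and -0.050 ± 0.15 (SE). The sign for H2-K1 and H2-M3 turned when library totals replaced TMM sizes.

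Relative to young HSC, class I genes of NR-treated aged HSC stayed higher in 3 of 5 cases. H2-K1 had a log2 fold change of 0.48 (adjusted p = 0.0215, edgeR), H2-D1 of 0.53 (adjusted p = 0.0135) and H2-T23 of 0.71 (adjusted p = 0.000718). B2m (0.32, adjusted p = 0.155) and H2-M3 (0.43, adjusted p = 0.119) did not pass. Nlrc5 measured 99.999, 103, 119, 120 and 65.9 CPM after NR and was higher than in young HSC (0.64 ± 0.16, SE, adjusted p = 0.0239, edgeR), with overlapping libraries, and its difference from aged HSC was 0.23 ± 0.16 (SE, adjusted p = 0.379). Without young replicates 1, 3 and 5, with 2 young libraries left, 6 of 10 members passed against young HSC. The calls of H2-K1 (log2 fold change 0.39, adjusted p = 0.327, edgeR) and H2-D1 (0.48, adjusted p = 0.225) were lost. With 1 library left out, Nlrc5 lost this call in 4 of 15 fits (without young replicate 4 or NR replicate 2, 3 or 4, adjusted p up to 0.0783) and H2-K1 in 3 of 15 (without young replicate 4 or 5 or NR replicate 4, adjusted p up to 0.0651).

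Ordered by mean level, the class II genes ran from young over aged to NR-treated aged HSC, and H2-Eb1 passed the test at each step. Its call between aged and NR-treated aged HSC was lost in 7 of 15 fits that left out 1 library. Without NR replicate 4, Cd74 was lower in NR-treated aged than in aged HSC (log2 difference -0.19). For H2-Aa, H2-Ab1 and Cd74 the last 2 groups did not differ by the test after adjustment. At an unadjusted p under 0.05 in edgeR, 3 of the 4 class II genes were higher in NR-treated aged than in aged HSC. For B2m, H2-K1, H2-D1 and H2-M3 the order was young, NR-treated aged, aged, and the upper 2 groups did not differ by the test. For H2-T23 and Nlrc5 the order was that of the class II genes, again with no difference by the test between the upper 2 groups. The distance between the classes was followed within each library as the mean log2 CPM of the 4 class II genes minus that of the 5 class I genes, with a prior count of 10. This value was -4.21 to -3.45 in young (mean -3.93 ± 0.285, SD, n = 5), -2.81 to -2.53 in aged (-2.71 ± 0.111) and -2.73 to -1.31 in NR-treated aged HSC (-2.18 ± 0.569). All aged and NR libraries lay above all young ones, while the aged and NR ranges overlapped. The distance from young was 1.22 in aged and 1.75 in NR-treated aged HSC, and 1.25 and 1.78 without young replicates 1, 3 and 5. With age the class II mean moved by 1.83 and the class I mean by 0.61. Between aged and NR-treated aged HSC they moved by 0.41 and -0.11. Without NR replicate 4, the difference of this value between NR-treated aged and aged HSC went from 0.53 to 0.31.

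**Figure D3:**
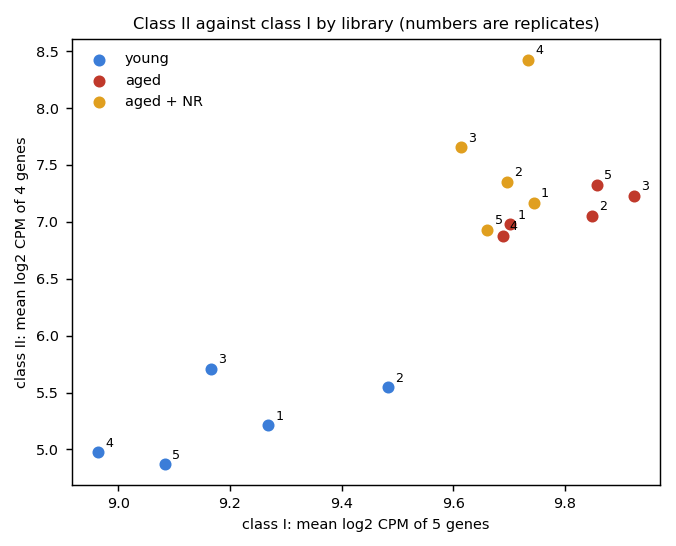
Mean log2 CPM of the 4 class II genes (y axis) against that of the 5 class I genes (x axis), 1 point per library, coloured by group and numbered by replicate. Young libraries sit at 4.87 to 5.71 in class II, aged libraries at 6.88 to 7.33 and NR libraries at 6.93 to 8.42, with class I between 9.61 and 9.92 in both aged groups.

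Markers of the mature cells best known for class II were measured in the same libraries. Of 10 B cell markers 8 were measured, and they summed to 68.4 to 258 CPM in young, 79.1 to 162 CPM in aged and 58.7 to 73.4 CPM in NR libraries. Cd79b was the most abundant of them, and Fcrla had 0 counts in NR replicates 1, 3 and 4, which allows up to 0.847, 1.17 and 1.10 CPM (3 counts, counting error only). Of 10 dendritic cell markers 7 were measured and summed to 12.9 to 74.5, 28.5 to 42.1 and 20.5 to 29.6 CPM, with Zbtb46 the most abundant and Siglech at 0 counts in 4 of the NR libraries. The 10 macrophage and monocyte markers, led by Lyz2, summed to 389 to 3183, 880 to 2297 and 306 to 554 CPM, and Adgre1 was at 0 in 4 NR libraries.

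With age, 0 of 8 B cell markers, 1 of 7 dendritic cell markers (Clec9a, higher) and 0 of 10 macrophage markers passed the test in edgeR. At an unadjusted p under 0.05 the numbers higher were 0, 2 and 0, DESeq2 called 0, 1 and 0, and limma-voom 0, 1 and 2. Between aged and NR-treated aged HSC, 4 of 8 B cell, 1 of 7 dendritic cell and 5 of 10 macrophage markers fell and none rose, as did 10 of 10 granulocyte markers (1057 to 1682 CPM summed in aged and 16.4 to 167 CPM in NR libraries), 7 of 10 erythroid markers (5507 to 8965 and 1941 to 3059 CPM) and 0 of 7 T cell markers (19.3 to 36.3 and 14.6 to 22.6 CPM). Within the erythroid list, mean Car2 was 2516 CPM in aged and 2114 CPM in NR libraries, and mean Hbb-bs was 3003 and 81.9 CPM. By DESeq2 and limma-voom 4 and 1 B cell, 5 and 7 macrophage and 7 and 10 granulocyte markers fell, and 1 and 0 T cell markers (1 at an unadjusted p under 0.05). With age, 5 of 10 erythroid markers rose, and 0 granulocyte markers passed in edgeR or DESeq2 (0 at an unadjusted p under 0.05) but 7 in limma-voom. Without young replicates 1, 3 and 5, 1 erythroid marker and Clec9a passed with age and none of the B cell, macrophage, granulocyte or T cell markers did, with 2 young libraries left. The median log2 fold changes of these lists were then 0.41, 0.76, 2.00 and -0.33, in that order. With young replicate 3 alone set aside, granulocyte sums were 26.1 to 636 CPM in young and 1057 to 1682 CPM in aged libraries. Macrophage sums were then 389 to 982 and 880 to 2297 CPM, B cell sums 68.4 to 124 and 79.1 to 162 CPM, and T cell sums 7.82 to 33.4 and 19.3 to 36.3 CPM. Young replicate 3 had the highest B cell, dendritic cell and macrophage sums of all 15 libraries, and its class II sum of 212 CPM was below the lowest aged sum of 486 CPM. NR replicate 4 had a class II sum of 1396 CPM with 73.4 CPM of B cell and 320 CPM of macrophage markers. Its B cell sum was the highest of the NR libraries, and its macrophage sum lay within their range of 306 to 554 CPM. Within the young group, replicate 3 was the highest for H2-Eb1 and Cd74. The share of class II RNA from mature cells was not tested.

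**Figure D4:**
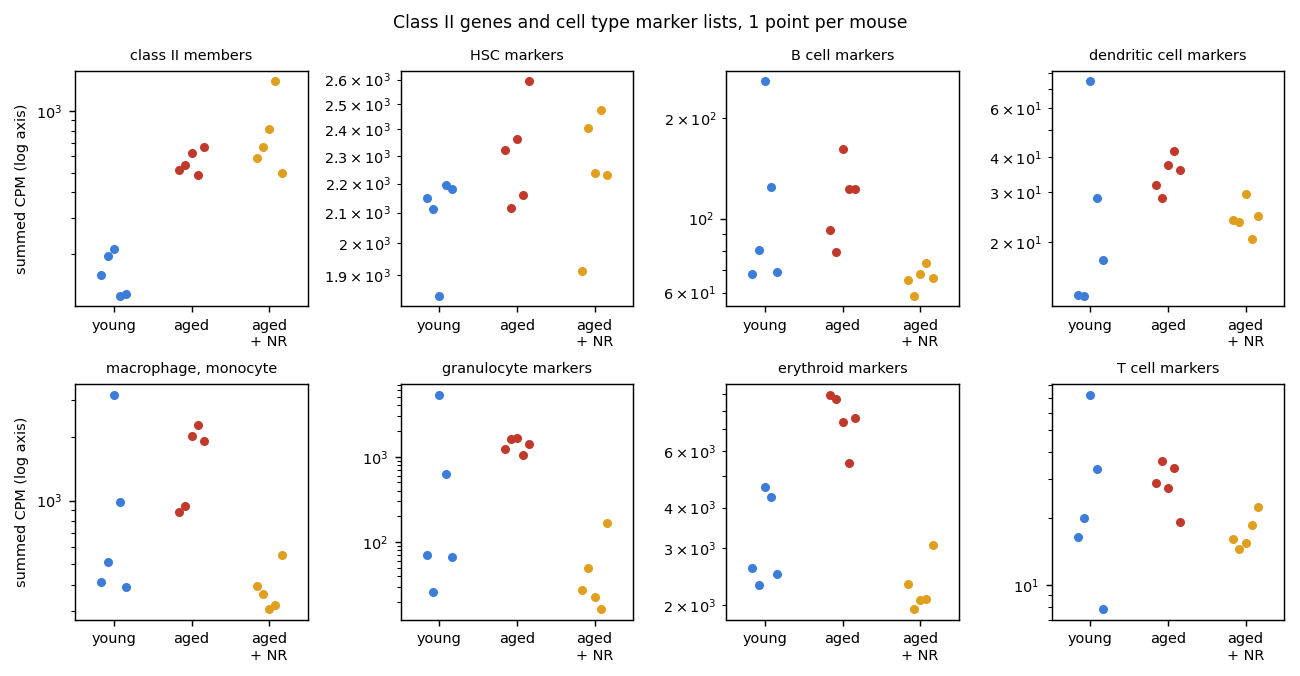
Summed CPM (y axis, log scale) of the 4 class II genes and of each cell type marker list in young, aged and NR-treated aged HSC (x axis), 1 point per mouse. The class II sum is 125 to 212 CPM in young, 486 to 666 CPM in aged and 497 to 1396 CPM in NR libraries, while granulocyte markers fall to 16.4 to 167 CPM in NR libraries.

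Around the members, genes that supply and load class I peptides were mostly higher with age. Of 14 genes of this list, 10 rose and 1 fell in aged HSC, with a median log2 fold change of 0.36. Several calls were narrow, and the likelihood ratio test called 6 of the 14 as higher. With young replicates 1, 3 and 5 left out, 1 of the 14, Canx, passed as higher and 1, Tap2, as lower (-0.78, adjusted p = 0.00963), and the median was 0.38. Among them Psme2, a subunit of the proteasome activator, rose by 0.52 (adjusted p = 0.00499, edgeR) and Tapbpl, a peptide editor, by 0.67 (adjusted p = 0.0142). Tap2, which with Tap1 forms the peptide transporter, went the other way. It fell by 0.79 on the log2 scale from 71.0 ± 6.12 CPM in young to 40.7 ± 3.55 CPM in aged HSC (SD, n = 5 each, adjusted p = 0.000126), with no overlap. After NR, Tap2 stood at 73.8 ± 10.2 CPM, a rise of 0.85 over aged HSC (adjusted p = 0.000778).

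In the same comparison Tap1 rose by 0.56 (adjusted p = 0.00808, edgeR) and the chaperone gene Canx fell by 0.46 (adjusted p = 0.0216), and the other 11 of the 14 genes did not pass. Against young HSC, 4 of the 14 genes were higher after NR and 0 lower (0 also at an unadjusted p under 0.05 and by DESeq2 and limma-voom), beside 1.91% of all genes that were lower. These were led by Tapbpl (0.93, adjusted p = 0.0038), Tap1 (0.68, adjusted p = 0.000946) and Psmb9, a subunit of the immunoproteasome (0.42, adjusted p = 0.0405). With young replicates 1, 3 and 5 left out, Tap1 alone of the 14 passed (adjusted p = 0.0289). Tap1 itself had not passed with age (0.11, adjusted p = 0.531).

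Of 19 further class I heavy chains 13 were measured, and 4 rose with age and 0 fell in edgeR (1 at an unadjusted p under 0.05, 0 by DESeq2 and limma-voom). H2-T3, the thymus leukemia antigen, had 1, 4, 3, 2 and 2 counts in the young libraries, at or near the limit of 3 counts below which a value was not told from absence, and 416 counts over the 5 aged libraries. Its pooled rate was 16.1 times that of young HSC (95% exact interval 9.14 to 31.5, covering counting error only), and in NR-treated aged HSC, with 140 counts, 10.3 times (5.72 to 20.4). H2-T22, a ligand of gamma-delta T cells, rose by 0.92 (adjusted p = 5.76e-05, edgeR), although 41.5% of the 72-base windows at its 3′ end also occur in H2-T10, and reads of the 2 genes may have been split. H2-T24 rose by 0.61 (adjusted p = 0.0229). After NR, H2-Q4 (0.69, adjusted p = 0.0287) and H2-Q6 (0.58, adjusted p = 0.0194) were among 3 genes higher than in aged HSC, while Mr1, which presents vitamin B metabolites, fell by 0.63 (adjusted p = 0.0396). H2-Q6 shares 33.3% of such windows and H2-Q4 17.7% with other genes. Against young HSC 4 of 13 were higher, including H2-Q7 (0.99, adjusted p = 0.000129). Without young replicates 1, 3 and 5, 2 of 13 passed as higher in aged HSC (H2-T3 and H2-T22) and 3 of 13 in NR-treated aged HSC.

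Among the members themselves, 21.2% of the 3′ windows of H2-T23 and 2.27% of those of H2-K1 occur in other genes, and none of the windows of the other 8 members do. The values of H2-T23 are uncertain to that extent.

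Of 13 measured genes of class II loading and processing, 3 rose and 1 fell with age, beside 9.68% and 9.63% of all genes. The numbers were 2 (Ctsl and Ctsb) and 0 without young replicates 1, 3 and 5. The cathepsins Ctsl (0.81, adjusted p = 0.000795, edgeR) and Ctsb (0.71, adjusted p = 0.00151) and the peptide exchange subunit H2-DMb1 (0.57, adjusted p = 0.0261) rose, and H2-Ob, part of the inhibitor of peptide exchange, fell by 1.36 (adjusted p = 0.00444). After NR 0 of the 13 rose in edgeR (1 at an unadjusted p under 0.05, 0 by DESeq2 and limma-voom) and 4 fell, led by the lysosomal protease Ctss (fell by 2.14, adjusted p = 0.0174), the thiol reductase Ifi30 (fell by 1.69, adjusted p = 0.0213) and Ctsb (fell by 0.67, adjusted p = 0.00866). Ctss, Ifi30 and Ctsb are also expressed in myeloid cells, whose markers fell in the same libraries, and the part of those cells was not tested. Against young HSC, edgeR called 1 gene of the list, H2-DMb1, as higher (0.82, adjusted p = 0.00773), and 0 as lower (1 at an unadjusted p under 0.05, 1 by the likelihood ratio test and 0 by DESeq2 and limma-voom). The H2-DMb1 call was lost without young replicates 1, 3 and 5, with 2 young libraries left, at a log2 fold change of 0.86 (adjusted p = 0.0735, edgeR).

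Of 17 transcription factors of MHC genes, 2 rose and 1 fell with age, shares near the 9.68% and 9.63% of all genes. Leaving out young replicates 1, 3 and 5, 1 passed as higher and 0 as lower. Irf9, a factor of the type I interferon response, rose by 0.46 (adjusted p = 0.0136, edgeR), and Nfkb1 fell by 0.42 (adjusted p = 0.0108). Irf8, a factor of myeloid and dendritic cells, fell by 2.69 between aged and NR-treated aged HSC (adjusted p = 0.028), along with the macrophage markers. Ciita, the class II activator, was near the lower end of measurement at 3.36, 3.41 and 6.58 CPM in young, aged and NR-treated aged HSC, and did not pass in edgeR in any comparison.

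**Figure D5:**
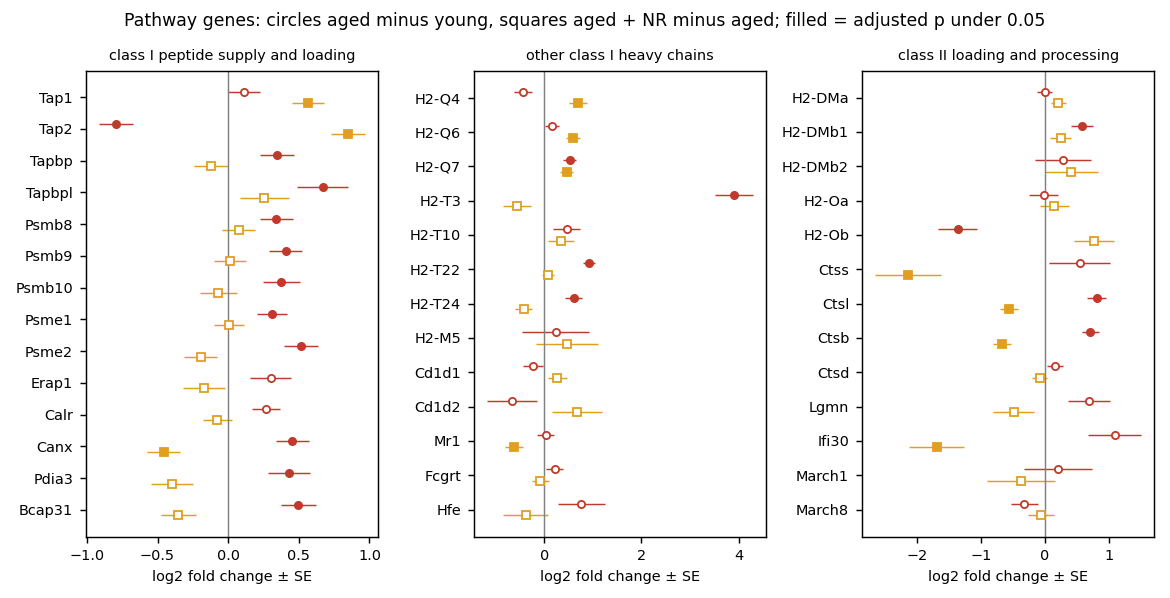
Log2 fold changes with SE (x axis) of the genes of 3 pathway lists (y axis), circles for aged minus young and squares for NR-treated aged minus aged HSC, filled where the adjusted p was under 0.05. Tap2 has its circle at -0.79 and its square at 0.85, and Ctss has its square at -2.14.

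The genes whose log2 CPM over the 15 libraries was most like the class II mean included Slc30a7 (Pearson r = 0.959), Igtp (0.959), Gbp4 (0.951) and Iigp1 (0.95), out of 10057 genes ranked. After the group means were taken out, r was 0.802 for Slc30a7, 0.858 for Igtp, 0.601 for Gbp4 and 0.704 for Iigp1. The genes most like the class I mean were Tmbim4 (0.965), Nupr1 (0.952), Ly6e (0.952), Selenom (0.95) and Coq8a (0.949), with 0.896, 0.871, 0.698, 0.673 and 0.786 within groups. These values describe likeness over libraries that share the 3 groups and their library sizes.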

How the data were processed

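Libraries were made from the 3′ ends of RNA of 20000 to 25000 HSC per mouse, with a UMI of 10 bases. The authors aligned the reads with STAR 2.4.2a to GRCm38, removed reads with duplicated UMIs, counted reads per gene with featureCounts, filtered genes of low expression and deposited whole-number counts without normalisation (tools and build per the labels). No column was left out (0 unused), and all 15 libraries were grouped by title, age and treatment. Libraries of a group were not copies of each other (lowest chi-square per degree of freedom 3.21).

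Tests used edgeR 4.0.16 in R 4.3.3: TMM sizes, a single quasi-likelihood fit over the 15 libraries with group as its factor, and p-values adjusted by Benjamini-Hochberg across the whole table. The study used a likelihood ratio test, kept here as an alternative. The script was tested on simulated data. CPM use TMM sizes, and class means use log2 CPM with a prior count of 10. A count of 3 or fewer was not told from absence, which covers counting error only. Each library is labelled as 1 mouse. The p-values set a difference between groups against the spread between mice, estimated over the 3 groups together, also where the groups differ in spread.

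The members, the gene lists and the tests were chosen with earlier results of these data known. Named were all 10 members, at most 3 genes per pathway list and comparison (largest change among genes called with a mean of at least 5 CPM), the most abundant marker of a list and those at 0, and from the 5 genes most like each class mean, chosen without predicted genes, clones and Rik genes. Genes outside this rule (H2-DMb1 with age, Clec9a, Tap1 with age, Ciita, Kit, Mecom, Ly6a, Slamf1, Procr, Hoxb5 and Hbb-bs) were named after their values were seen. Not in the table used here were Cd79a, Cd22, Itgax, Cd209a, Batf3, Cd3e, Cd8a and Cd8b1. Positions and 3′ windows of 72 bases within the last 500 bases of transcripts come from GENCODE M21 (GRCm38), and promoters from RefSeq (GRCm38.p6), read with Python 3.11.15, NumPy 2.4.6 and pandas 2.3.3. Figures used matplotlib 3.10.9. Alternatives were the likelihood ratio test, DESeq2 1.42.0, limma 3.58.1 (voom), DESeq2 size factors, library totals, a separate fit per pair of groups, at least 10 counts in every library, counts thinned to the smallest total, a replicate block, a prior count of 2, summed CPM, each library left out in turn, the young libraries 1 and 5 left out, and 1, 3 and 5 left out, the last chosen after seeing the data. Some genes that meet the naming rule are not reported here.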

Additional observations from a re-analysis of the deposited data

Results flagged for a closer look

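In 5 of 30 sets (a member in a group of 5 libraries), the highest or lowest library lay further from the others than Dixon's 95% limit allows. Chance gives about 1 in 20 sets. H2-K1 was 3067 CPM in aged replicate 2, the shallowest library, with the next library at 2194 CPM. H2-D1 was 1955 CPM in NR replicate 3, below the next at 2088 CPM. H2-M3 was 54.3 CPM in NR replicate 2, above the next at 47.9 CPM. H2-Ab1 was 134 CPM in aged replicate 4, below the next at 160 CPM. Cd74 was 306 CPM in NR replicate 4, above the next at 164 CPM, and this library was also the highest for H2-Aa, H2-Ab1 and H2-Eb1. The values of Cd74 and H2-K1 move the comparisons between NR-treated aged and aged HSC, whose log2 differences were -0.19 without NR replicate 4 and 0.055 without aged replicate 2.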

How the results depend on the processing

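The number of members that passed changed in the comparison of NR-treated aged with aged HSC, where it is 1. It was 2 with DESeq2 (H2-Eb1 higher and B2m lower) and 2 with library totals (H2-Eb1 and H2-Ab1), 0 with counts thinned to the smallest total, 0 with the replicate block, and 0 to 2 with 1 library left out. It was 0 without any of the 5 aged libraries, NR replicate 3 or NR replicate 4, and 2 without NR replicate 5. Against young HSC, 8 to 10 members passed in aged and 6 to 9 in NR-treated aged HSC with 1 library left out. The distance of class II from class I between NR-treated aged and young HSC was 1.36 with thinned counts, against 1.75. Log2 differences between NR-treated aged and aged HSC that changed sign were 0.056 for H2-K1 and 0.10 for H2-M3 with library totals, and for H2-M3 0.021 with at least 10 counts in every library and 0.25 with thinned counts. With 1 library left out they ran from -0.11 to 0.055 for H2-K1, from -0.13 to 0.041 for H2-M3 (above 0 without aged replicate 3 or 5) and from -0.19 to 0.27 for Cd74. None of these passed the test, and the causes were not tested. The median log2 difference of all genes was -0.16 with age and 0.16 after NR with library totals, against -0.032 and 0.020 with TMM. Replicate numbers did not pair the samples (mean correlation of deviations 0.00666, range -0.25 to 0.14), and the replicate block gave 2836, 1048 and 589 calls over all genes against 3120, 1303 and 722. Of the members' log2 differences under all alternatives, 731 kept their direction and side of the threshold, 34 lost a call, 7 gained 1 and 8 changed sign. Depth limits Ciita and H2-T3, and the H2-M3 value of aged replicate 2.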
